A study of Homo sapiens with 6 samples.

Results

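The genes of 10 proteins that fold, hydroxylate, trim and crosslink collagen were followed in 12Z, an immortalised human cell line from endometriosis, the disease in which tissue like the womb lining grows elsewhere in the body. The members were chosen by gene symbol and are 10 of the 60419 genes listed in the deposited tables: SERPINH1, P4HA1, P4HA2, P4HA3, PLOD1, PLOD2, PLOD3, LOX, LOXL2 and BMP1. Each of the 10 had its own row and all 10 passed the filter on low counts. Myrrh cells received an extract of myrrh, a Commiphora resin, at 100 µg/mL in DMSO for 12 h, and DMSO cells received the vehicle, with 3 RNA sequencing libraries in each group. Cells of both groups carried the same wild-type genotype and were grown with 10% charcoal-stripped serum, and the study asked how the extract changes gene expression. All libraries come from this 1 line. The labels name no clone, passage or separate culture, so p-values measure only the spread between these libraries, which may be technical.

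Libraries held 22454783 to 24531493 estimated gene counts in Myrrh and 22592816 to 27588151 in DMSO. Markers of cell types were summed in TPM (a length-adjusted level). The 7 epithelial markers summed to 1168 to 1274 TPM in Myrrh and 1604 to 1640.4 TPM in DMSO, mostly from the keratin genes KRT8 and KRT18, while the epithelial cadherin gene CDH1 averaged under 1 TPM in each group. The 7 stromal markers, led by the intermediate filament gene VIM, summed to 1768 to 1864 TPM in Myrrh and 2829 to 2965 TPM in DMSO. The 6 endothelial markers summed to at most 0.16 TPM in Myrrh and 0.48 TPM in DMSO, with CDH5 at 0, and the 4 smooth muscle markers to at most 2.85 TPM in Myrrh and 2.68 TPM in DMSO. The 6 leukocyte markers summed to 54.7 to 78.7 TPM in Myrrh and 32.7 to 37.1 TPM in DMSO. Most came from the lysosomal gene CD68, which averaged 65.3 TPM in Myrrh and 29.2 TPM in DMSO. CD14 and LST1 went the other way, at 0.443 and 1.56 TPM in Myrrh and 2.53 and 2.74 TPM in DMSO. CD3E was at 0, and PTPRC and TYROBP averaged under 1 TPM. The part of these shifts in the results below was not tested.

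Collagen chains are made in the endoplasmic reticulum (ER), where prolyl hydroxylases stabilise the triple helix, lysyl hydroxylases prepare sites for sugars and crosslinks, and the chaperone HSP47, the product of SERPINH1, holds the folded helix. After secretion, proteases such as BMP1 remove the propeptides so that fibrils can form, and the copper enzymes LOX and LOXL2 oxidise lysines so that chains become covalently linked. The hydroxylases need oxygen, iron and vitamin C, and several of these genes are known targets of the hypoxia factor HIF, while SERPINH1 is known as a heat shock gene. Endometriotic lesions are known for fibrosis, which is an excess of such crosslinked collagen.

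Promoters of 3 members are shown first, chosen because they hold the known element of a heat shock or hypoxia regulator and the genes differed in their values. RefSeq promoter windows on GRCh38.p14 were found for 7 of the 10 genes, and the 250 bases before the start were searched on both strands. The SERPINH1 window is chr11:75562003-75562252 on the plus strand, the LOX window chr5:122078260-122078509 on the minus strand and the PLOD2 window chr3:146161185-146161434 on the minus strand. Each ends at the base before a RefSeq transcript start and is printed 5′ to 3′, with matches in capitals. In SERPINH1 the capitals are a heat shock element of 3 alternating units, and in LOX and PLOD2 they are the HIF core on either strand.

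SERPINH1: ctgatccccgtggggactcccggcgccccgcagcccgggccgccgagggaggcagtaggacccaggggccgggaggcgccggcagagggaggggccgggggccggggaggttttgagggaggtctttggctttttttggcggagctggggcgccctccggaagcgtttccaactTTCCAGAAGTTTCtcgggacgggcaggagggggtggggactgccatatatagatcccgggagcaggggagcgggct
LOX: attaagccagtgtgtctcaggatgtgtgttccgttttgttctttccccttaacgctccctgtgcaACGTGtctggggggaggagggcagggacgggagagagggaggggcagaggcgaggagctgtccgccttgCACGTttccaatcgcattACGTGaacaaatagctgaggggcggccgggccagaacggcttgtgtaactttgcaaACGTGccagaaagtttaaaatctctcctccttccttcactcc
PLOD2: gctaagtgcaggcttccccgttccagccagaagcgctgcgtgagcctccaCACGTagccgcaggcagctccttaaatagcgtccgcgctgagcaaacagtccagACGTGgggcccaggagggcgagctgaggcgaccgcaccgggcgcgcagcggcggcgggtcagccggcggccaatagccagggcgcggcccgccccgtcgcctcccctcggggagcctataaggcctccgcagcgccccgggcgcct

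The heat shock element searched was TTCNNGAANNTTC or GAANNTTCNNGAA, and it was present in 155 of 35116 windows of the same length (0.441%). In SERPINH1 it reads TTCCAGAAGTTTC, from 76 to 64 bases before the start, and no other member window held it. Its shorter form of 2 units, GAANNTTC or TTCNNGAA, was found in 11.6% of all windows and, among members, only within the same SERPINH1 stretch. The HIF core ACGTG, read on both strands, occurred in 18.5% of all windows. LOX held 4 of them, and 0.669% of all windows held 4 or more. PLOD2 held 2 and P4HA1 held 1, and the windows of P4HA2, PLOD1 and PLOD3 and the printed one of SERPINH1 held none. Only ACGTG was searched, so the related form GCGTG was not counted in any window. A second SERPINH1 window and 2 other LOX windows, from other starts, held 1 each. The ER stress element, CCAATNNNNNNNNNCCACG, was in 0.074% of all windows and in no member window. These are matches of letters in short windows, and no binding was measured.

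In Myrrh, 6 of the 10 genes rose, 1 fell and 3 were not called. SERPINH1 rose 2.31-fold, P4HA2, PLOD1 and PLOD2 rose 1.80-fold to 1.83-fold, and PLOD3 and P4HA1 rose less. BMP1, the propeptide protease, fell to 0.46 of its DMSO level, and the crosslinking oxidases LOX and LOXL2 and the low-level P4HA3 were not called. A call is an adjusted p under 0.05 in edgeR (quasi-likelihood F-test, Benjamini-Hochberg over the 16395 genes tested). Of all those genes 78.4% were called, 39.3% higher and 39.1% lower in Myrrh, so the share of members called (7 of 10) is near the background and is no result about them. The median log2 fold change was 0.31 over the 10 genes and -0.02 over all genes tested. Library totals in place of TMM factors lowered the median of all genes by about the same amount as that of the members, to -0.16 and 0.16, and then called 5 members higher and 2 lower (background 32.8% higher and 45.6% lower). DESeq2 called 6 members higher and 1 lower, where 74.3% of all genes were called, 37.4% higher and 36.9% lower. So did limma on log2(TPM + 1), with 72.6% of all genes called, 38.9% higher and 33.6% lower. In these bulk samples, fewer cells of a type and less RNA per cell cannot be told apart.

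**Figure D1:**
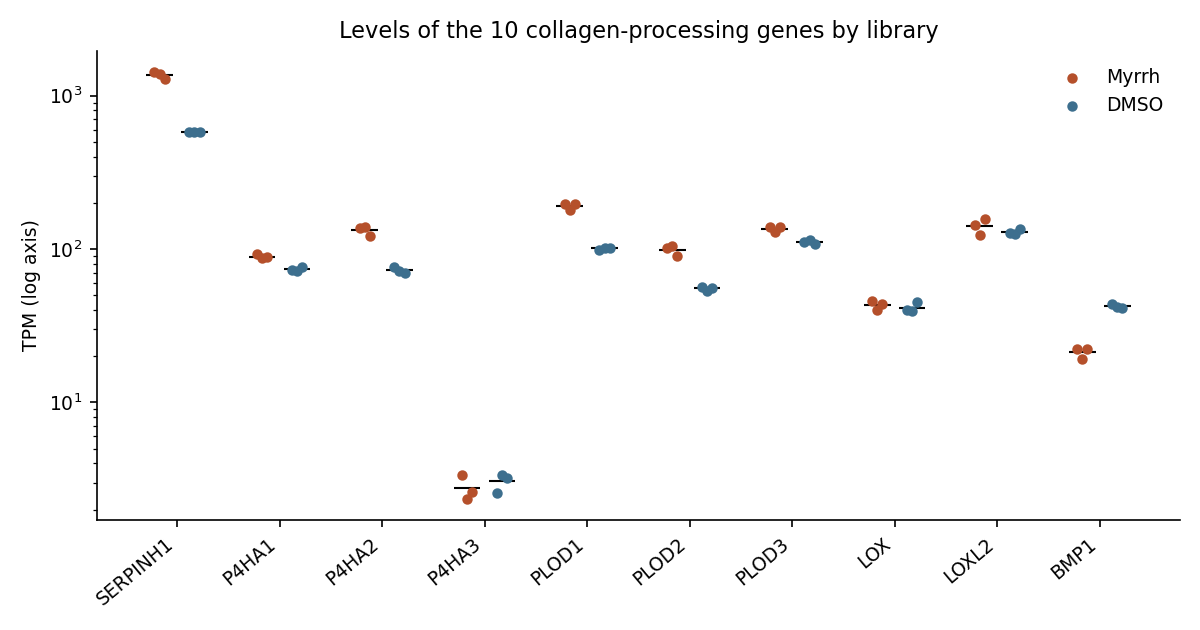
TPM on a log axis for the 10 genes in each of the 3 Myrrh and 3 DMSO libraries (points, with a line at the group mean). SERPINH1 stands highest in both groups, P4HA3 lowest, and BMP1 is the gene whose Myrrh points all lie below its DMSO points.

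SERPINH1, the collagen-specific chaperone of the ER, had 1924, 2059.6 and 1803 CPM (counts scaled to library size with TMM factors) in Myrrh, against 839.8, 844 and 822 CPM in DMSO. Every Myrrh library was above every DMSO library, and the spread was wider in Myrrh (coefficient of variation 6.65%) than in DMSO (1.42%). The log2 fold change was 1.21 ± 0.06 (SE), with an adjusted p of 2.4e-16 by edgeR. It lay at percentile 92.2 of the log2 fold changes of all genes tested. In TPM, SERPINH1 averaged 1358 ± 70.4 in Myrrh and 579 ± 3.57 in DMSO (SD, n = 3 each), and ranked 90 in Myrrh and 185 in DMSO among all genes. It made up 0.136% ± 0.00705 of all TPM in Myrrh and 0.0579% ± 0.000357 in DMSO, the highest level of the 10 genes in every library.

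The gene lies on chromosome 11 at 75562056 to 75572783 on the plus strand (GENCODE 29 on GRCh38, as for all positions of genes here), where no other annotated gene overlaps it. For comparison, the 18 other heat shock chaperones on a list of HSF1 targets all rose (18 of 18, median log2 fold change 2.91), from HSPE1, a mitochondrial co-chaperonin (1.29 ± 0.12), to HSPA1A, an inducible chaperone (6.06 ± 0.07). The SERPINH1 value (1.21 ± 0.06) was below each of the 18, but it overlapped that of HSPE1 within the SE. The difference was not tested. HSPA1A and HSPA1B (6.02 ± 0.07) are near-identical copies, so the split of reads between them is uncertain. These lists were drawn up with earlier results of these data known, so their counts are descriptions. Among all genes tested, 39.3% were called higher and 39.1% lower.

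Prolyl 4-hydroxylase joins catalytic alpha subunits, made from P4HA1, P4HA2 or P4HA3, with the beta subunit P4HB, which is also a protein disulfide isomerase. P4HA1 lies on chromosome 10 at 73007217 to 73096974, P4HA2 on chromosome 5 at 132191838 to 132295315 and P4HA3 on chromosome 11 at 74235801 to 74311657, all on the minus strand. P4HA2 had 193, 202 and 186 CPM in Myrrh, against 110.15, 104.8 and 104.7 CPM in DMSO. All Myrrh libraries were higher, by a log2 fold change of 0.86 ± 0.05 (adjusted p = 4e-14 by edgeR). P4HA1 had 171, 174 and 166.4 CPM in Myrrh and 145, 145 and 149.98 CPM in DMSO. The groups did not overlap either, but the log2 fold change was 0.22 ± 0.05 (adjusted p = 0.00038 by edgeR).

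The P4HA1 call was the weakest of the 7. Scaled by library totals, its log2 fold change was 0.07 and the adjusted p 0.19, with a range of adjusted p from 2.5e-05 to 0.19 over 14 other settings. With a filter of 5 CPM in 3 libraries the value was 0.12, and that filter lowered all members it tested by about the same amount. P4HA3 had 4.57, 3.81 and 4.13 CPM in Myrrh and 3.999, 4.16 and 4.98 CPM in DMSO, from 85 to 138 estimated counts per library. Its groups overlapped, and the log2 fold change of -0.07 had a 95% interval of -0.38 to 0.23; larger changes in either direction lie outside it.

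The shares of the 2 main alpha subunits did not overlap between the groups. In TPM, P4HA1 averaged 89.2 ± 2.87 in Myrrh and 74.1 ± 2.45 in DMSO, and P4HA2 averaged 133 ± 9.62 in Myrrh and 72.4 ± 3.40 in DMSO (SD, n = 3 each). P4HA2 supplied 59.0% ± 1.79 of the alpha subunit TPM in Myrrh and 48.4% ± 1.85 in DMSO, and P4HA1 supplied 39.7% ± 1.70 in Myrrh and 49.6% ± 1.69 in DMSO. The log2 ratio of P4HA1 to P4HA2 was -0.57, -0.68 and -0.47 in Myrrh, against -0.05, 0.003 and 0.15 in DMSO. The groups did not overlap and the difference was -0.61 (two-sided exact permutation test, p = 0.1, the smallest that 3 against 3 can give, and 0.17 adjusted over the 5 ratios compared).

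The sum of the 3 alpha subunits was 225 ± 10.9 TPM in Myrrh and 149.6 ± 2.24 TPM in DMSO. P4HB rose too, by a log2 fold change of 0.76 ± 0.05 (adjusted p = 1e-12 by edgeR), and stood at 975 ± 25.8 TPM in Myrrh and 599.5 ± 6.34 TPM in DMSO. Alpha subunit TPM per P4HB TPM was 0.239, 0.241 and 0.213 in Myrrh, against 0.255, 0.247 and 0.246 in DMSO. These values differed by little, although no Myrrh value reached the lowest DMSO value.

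PLOD1, PLOD2 and PLOD3 encode lysyl hydroxylases. PLOD1 acts mainly on the helix, PLOD2 on the telopeptides that carry crosslinks, and PLOD3 also transfers glucose to hydroxylysine that already carries a sugar. PLOD1 lies on chromosome 1 at 11934205 to 11975538 on the plus strand, PLOD2 on chromosome 3 at 146069440 to 146163653 and PLOD3 on chromosome 7 at 101205977 to 101218420, both on the minus strand. PLOD1 had 358, 354 and 373 CPM in Myrrh, against 191, 199.9 and 202 CPM in DMSO. It rose by a log2 fold change of 0.87 ± 0.05 (adjusted p = 6.1e-14 by edgeR). PLOD2 had 237, 258 and 219.5 CPM in Myrrh, against 131, 133 and 134 CPM in DMSO. Its log2 fold change was 0.84 ± 0.06 (adjusted p = 4.3e-13 by edgeR), and its Myrrh libraries varied more (8.08%, coefficient of variation) than its DMSO libraries (1.31%).

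PLOD3 had 151.6, 146.8 and 158.6 CPM in Myrrh, against 115.5, 120.02 and 112.5 CPM in DMSO. Its rise was smaller, at 0.39 ± 0.05 on the log2 scale (adjusted p = 1.2e-07 by edgeR), and no Myrrh library overlapped a DMSO library for any of the 3 genes. Groups that do not overlap were found for 80.3% of all genes tested (40.1% higher and 40.2% lower in Myrrh) and for 7 of the 10 members (6 higher and 1 lower). On the authors' log2(TPM + 1) values the rise of PLOD3 was 0.28. PLOD3 shares 429 exon bases with ZNHIT1 on the opposite strand, and whether reads were counted by strand is unknown here, so its value is uncertain to that extent.

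Within the family, PLOD1 and PLOD3 changed order in TPM. In TPM, PLOD1 averaged 190.2 ± 9.79 in Myrrh and 101 ± 2.01 in DMSO, while PLOD3 averaged 136 ± 5.86 in Myrrh and 111 ± 3.46 in DMSO (SD, n = 3 each). PLOD3 thus made up 32.0% ± 0.655 of the family's TPM in Myrrh and 41.6% ± 0.99 in DMSO, and PLOD1 44.8% ± 1.36 in Myrrh and 37.7% ± 0.703 in DMSO. The log2 ratio of PLOD3 to PLOD1 was -0.49, -0.47 and -0.50 in Myrrh, against 0.18, 0.17 and 0.08 in DMSO. The difference was -0.63 (two-sided exact permutation test, p = 0.1, or 0.17 adjusted over 5 ratios). With counts in place of TPM the difference was -0.48. Counts per TPM of PLOD3, relative to the median gene, themselves differed between the groups by 0.17 on the log2 scale. The part of this in the change of order was not tested. PLOD2 averaged 98.5 ± 7.47 TPM in Myrrh and 55.2 ± 1.85 TPM in DMSO, and its share was 23.2% ± 2.01 in Myrrh and 20.7% ± 0.848 in DMSO. The log2 ratio of PLOD2 to PLOD1 overlapped between the groups, with a difference of -0.08 (exact permutation p = 0.6, or 0.75 adjusted over 5 ratios), within a spread of 0.17 (SD) among the Myrrh libraries. The family's sum was 424 ± 12.7 TPM in Myrrh and 267 ± 2.16 TPM in DMSO.

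**Figure D2:**
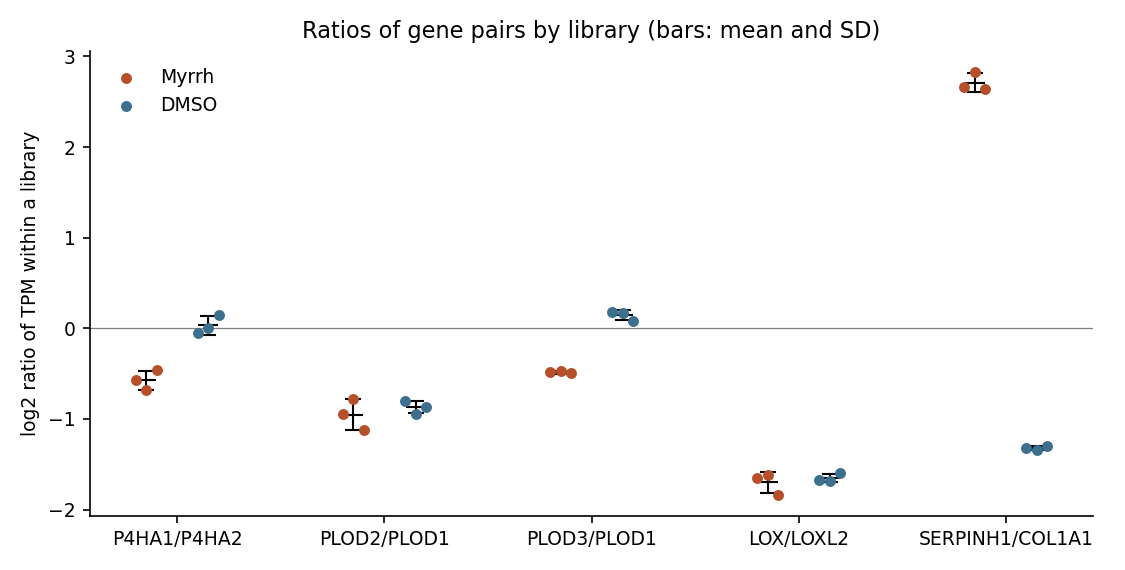
Log2 ratio of TPM within each library for 5 gene pairs, with 3 Myrrh and 3 DMSO points and bars for mean and SD. The groups separate for P4HA1/P4HA2, PLOD3/PLOD1 and SERPINH1/COL1A1 and overlap for PLOD2/PLOD1 and LOX/LOXL2. Single genes did not overlap for 80.3% of all genes tested, and how often other gene pairs separate was not examined.

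LOX and LOXL2 encode lysyl oxidases, the secreted enzymes that start covalent crosslinks in collagen, and in the case of LOX also in elastin. LOX lies on chromosome 5 at 122063195 to 122078360 and LOXL2 on chromosome 8 at 23297189 to 23425328, both on the minus strand. LOX had 144, 139 and 142 CPM in Myrrh and 136, 137 and 153 CPM in DMSO. The highest value was in a DMSO library and the groups overlapped. The log2 fold change was -0.005 ± 0.05 (adjusted p = 0.94 by edgeR) with a 95% interval of -0.12 to 0.11, so a rise of the size seen in PLOD1 lies outside it. The sign of this value turned with the setting. Scaled by library totals, LOX was called lower, at -0.15 (adjusted p = 0.02, range 0.02 to 0.97 over 14 other settings).

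LOXL2 had 352, 339 and 399 CPM in Myrrh and 337, 341 and 359 CPM in DMSO. A single Myrrh library was above all DMSO libraries and the others lay among them. Its log2 fold change of 0.07 ± 0.06 was not called (adjusted p = 0.28 by edgeR, 95% interval -0.05 to 0.20). In TPM, LOX averaged 43.2 ± 2.71 in Myrrh and 41.4 ± 2.97 in DMSO, and LOXL2 averaged 141 ± 16.2 in Myrrh and 129.7 ± 5.13 in DMSO (SD, n = 3 each). The log2 ratio of LOX to LOXL2 differed by -0.05 between the groups and overlapped (exact permutation p = 0.8, and 0.8 adjusted over 5 ratios).

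Both genes carry limits of annotation. LOX shares 138 exon bases with SRFBP1 on the opposite strand, and SRFBP1 had 651, 585 and 578 estimated counts in Myrrh against 168, 187 and 162 in DMSO. LOX itself had 3030 to 3439 counts in Myrrh and 3241 to 4254 in DMSO, and its estimated counts were not whole in 5 of the 6 libraries. LOXL2 shares 120 exon bases with ENTPD4 on the same strand, which had 1487, 1334 and 1187 counts in Myrrh against 2802, 3213 and 3273 in DMSO. P4HA3 shares exon bases with PPME1 on the opposite strand, which had 3110, 3053 and 2809 counts in Myrrh against 1698, 2090 and 2083 in DMSO. The part of these neighbours in the members' values was not tested.

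BMP1 encodes the metalloprotease that removes the C-terminal propeptide of fibrillar procollagens and also trims the LOX proenzyme. It lies on chromosome 8 at 22164736 to 22212326 on the plus strand, where a sense-overlapping transcript with 461 shared exon bases had 0 to 3 counts per library. BMP1 had 52.4, 51.1 and 53.0 CPM in Myrrh, against 114, 116 and 109.6 CPM in DMSO. The 3 Myrrh libraries lay close together and far below the DMSO libraries. The log2 fold change was -1.12 ± 0.05 (adjusted p = 1.3e-16 by edgeR), at percentile 16.1 of all genes tested. In TPM, BMP1 averaged 21.3 ± 1.73 in Myrrh and 42.3 ± 1.39 in DMSO, and its rank among all genes was 6003 in Myrrh and 3230 in DMSO. It was the member that fell, and it kept its call in all 14 other settings, with values from -1.26 to -0.96.

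**Figure D3:**
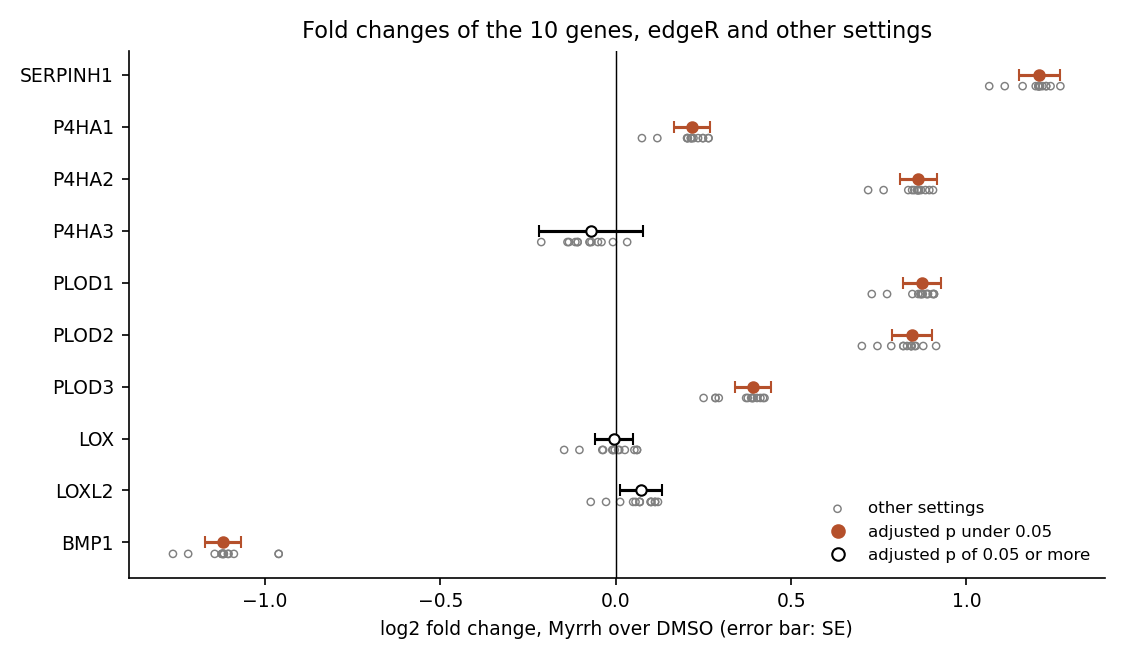
Log2 fold change of Myrrh over DMSO for the 10 genes by edgeR (large points with SE, filled where the adjusted p is under 0.05) and in the other settings (small open circles). SERPINH1 lies at 1.21 and BMP1 at -1.12, while the values of LOX, LOXL2 and P4HA3 fall on both sides of 0.

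The order of the genes by level changed little at its ends. In Myrrh the order in TPM was SERPINH1, PLOD1, LOXL2, PLOD3, P4HA2, PLOD2, P4HA1, LOX, BMP1 and P4HA3. LOXL2, PLOD3 and P4HA2 did not differ beyond their spread there, at 141 ± 16.2, 136 ± 5.86 and 133 ± 9.62 TPM, and PLOD2 and P4HA1 overlapped. In DMSO the order was SERPINH1, LOXL2, PLOD3, PLOD1, P4HA1, P4HA2, PLOD2, BMP1, LOX and P4HA3. P4HA1 and P4HA2 overlapped there, and so did BMP1 (42.3 ± 1.39 TPM) and LOX (41.4 ± 2.97 TPM). The 10 genes together made up 0.221% ± 0.00824 of all TPM in Myrrh and 0.121% ± 0.000928 in DMSO.

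Most of the collagen chains on which these enzymes act fell. Of 15 collagen chain genes tested, 13 fell and 2 rose (median log2 fold change -1.17), beside 39.1% of all genes lower and 39.3% higher. COL5A3 and the elastin gene ELN were too low to be tested. COL1A1, the main chain of type I collagen, fell by 2.91 ± 0.06 on the log2 scale and COL16A1, a fibril-associated collagen, fell by 2.71 ± 0.09. COL1A2, the second chain of type I, fell by 2.65 ± 0.06. COL6A2, of the microfibrillar type VI collagen, rose by 0.35 ± 0.06, and COL4A2, of basement membrane, by 0.28 ± 0.07. In edgeR the adjusted p of these 5 genes was at most 0.00099. With library totals 13 fell and 1 rose, and COL4A2 (0.13, adjusted p = 0.11) was not called. On log2(TPM + 1) COL4A2 turned to -0.08 (adjusted p = 0.13 by limma). SERPINH1 had 6.32, 7.10 and 6.25 TPM per COL1A1 TPM in Myrrh, against 0.401, 0.395 and 0.408 in DMSO. COL1A1 stood at 208 ± 16.2 TPM in Myrrh and 1444 ± 16.95 TPM in DMSO, so the chaperone transcript was the more abundant of the pair in Myrrh and the less abundant in DMSO. The log2 ratio differed by 4.03 (two-sided exact permutation test, p = 0.1, or 0.17 adjusted over 5 ratios).

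Of 13 other ER partners of collagen tested, 6 rose and 5 fell (median 0.10), or 5 and 6 with library totals (median -0.04). Over all genes 39.3% rose and 39.1% fell (median -0.02), so these counts are near the background and are no result about the list. TMEM38B, an ER cation channel needed for collagen modification, rose by 1.83 ± 0.06, and PPIB, the prolyl isomerase of the ER, rose by 0.78 ± 0.06. P3H4, a partner of the lysyl hydroxylase PLOD1, fell by 1.13 ± 0.06 and P3H2, a prolyl 3-hydroxylase, fell by 0.73 ± 0.06. Of the 3-hydroxylase complex, P3H1 also fell, by 0.38 ± 0.05, while its partner CRTAP was not called by edgeR at 0.10 ± 0.05 (adjusted p = 0.075). CRTAP was called higher by limma on log2(TPM + 1) (0.37, adjusted p = 0.00028). P3H1 and CRTAP were chosen after their values were seen.

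All 8 genes of procollagen export rose, with a median of 0.55, where 39.3% of all genes rose and 39.1% fell (median -0.02). MIA3, whose product TANGO1 loads procollagen into transport carriers, rose by 1.55 ± 0.06, to 267 ± 14.9 CPM in Myrrh, against 91.5 ± 0.932 CPM in DMSO. MIA2, its relative and partner, rose by 1.47 ± 0.07. Among 21 general ER chaperone and folding genes 20 rose (median log2 fold change 1.82), led by the co-chaperone gene DNAJB9 (3.84 ± 0.07) and the main lumenal chaperone gene HSPA5 (3.81 ± 0.06). ERO1A, the ER oxidase of protein disulfide isomerases, was called lower by edgeR (-0.17 ± 0.05, adjusted p = 0.0033) but higher by limma on log2(TPM + 1) (0.25, adjusted p = 0.0094), so its direction depends on the measure and all 21 were higher there. The fold changes of SERPINH1, P4HA2, PLOD1 and PLOD2 were all below that median.

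Of 7 other processing and crosslinking genes tested, 5 fell and 1 rose, with a median of -1.34. Among all genes 39.1% fell and 39.3% rose. ADAMTS2, the protease of the N-terminal propeptide, fell by 1.86 ± 0.07, to 14.7 ± 0.368 CPM in Myrrh, against 53.4 ± 0.967 CPM in DMSO. LOXL4, a lysyl oxidase, fell by 1.86 ± 0.16, to 1.73 ± 0.293 CPM in Myrrh, against 6.27 ± 0.237 CPM in DMSO. PCOLCE2, an enhancer of BMP1, rose by 0.58 ± 0.19 (adjusted p = 0.0071 by edgeR), at 2.97 ± 0.277 CPM in Myrrh and 1.98 ± 0.164 CPM in DMSO. The PCOLCE2 call was lost with limma on log2(TPM + 1) (0.28, adjusted p = 0.27), and a filter of 5 CPM in 3 libraries removed the gene. Its relative PCOLCE fell by 1.34 ± 0.06, the oxidase gene LOXL1 fell by 1.58 ± 0.09 and LOXL3 fell by 0.37 ± 0.08. These last 3 were chosen after their values were seen. TLL1, a BMP1-like protease, was not called, and TLL2, ADAMTS3 and ADAMTS14 were too low to be tested. LOX and LOXL2 were thus the lysyl oxidase genes that were not called, and the other 3 of the family fell.

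Of 5 tested genes of cofactor supply, 1 rose and 2 fell (median -0.15). Among all genes 78.4% were called, 39.3% higher and 39.1% lower (median -0.02), so these counts are no result about the list. SLC31A1, the copper importer, rose by 1.31 ± 0.05, while SLC23A2, the vitamin C transporter, fell by 0.59 ± 0.06 and ATOX1, a copper chaperone, fell by 0.46 ± 0.07 (adjusted p in edgeR at most 1.4e-06). ATP7A, which loads copper onto LOX in the secretory pathway, was not called at 0.04 ± 0.09, and neither was its relative ATP7B. ATP7A and ATP7B were chosen after their values were seen.

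Genes of 2 other programmes, each known to include some of the 10 genes, were counted in the same way. Of 17 hypoxia targets tested, 5 rose and 7 fell (median -0.15), or 3 and 11 with library totals. VEGFA, an angiogenic factor, rose by 0.71 ± 0.05 and ADM, a vasodilator peptide, by 0.63 ± 0.06, while ALDOC, a glycolytic aldolase, fell by 2.23 ± 0.26 and LDHA, lactate dehydrogenase, fell by 1.75 ± 0.06. Among the members with an ACGTG match, PLOD2 (2 matches) rose by 0.84 and P4HA1 (1 match) by 0.22. LOX (4 matches in its printed window) was not called, and SERPINH1 (1 match in its second window) rose by 1.21. PLOD2 and LOX were printed because their values differed, so their contrast is no result. Of 12 TGF-beta targets, 5 rose and 5 fell (median -0.02), or 1 and 7 with library totals. POSTN, the matrix protein periostin, rose by 0.34 ± 0.08, while IGFBP3, which binds insulin-like growth factors, fell by 1.83 ± 0.07 and LTBP2, a latent TGF-beta binding protein relative, fell by 1.45 ± 0.08. POSTN was not called with library totals (0.19, adjusted p = 0.082) or by limma on log2(TPM + 1) (0.11, adjusted p = 0.36). The shares of both lists called, 12 of 17 and 10 of 12, stand beside 78.4% of all genes and are no result about the lists.

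**Figure D4:**
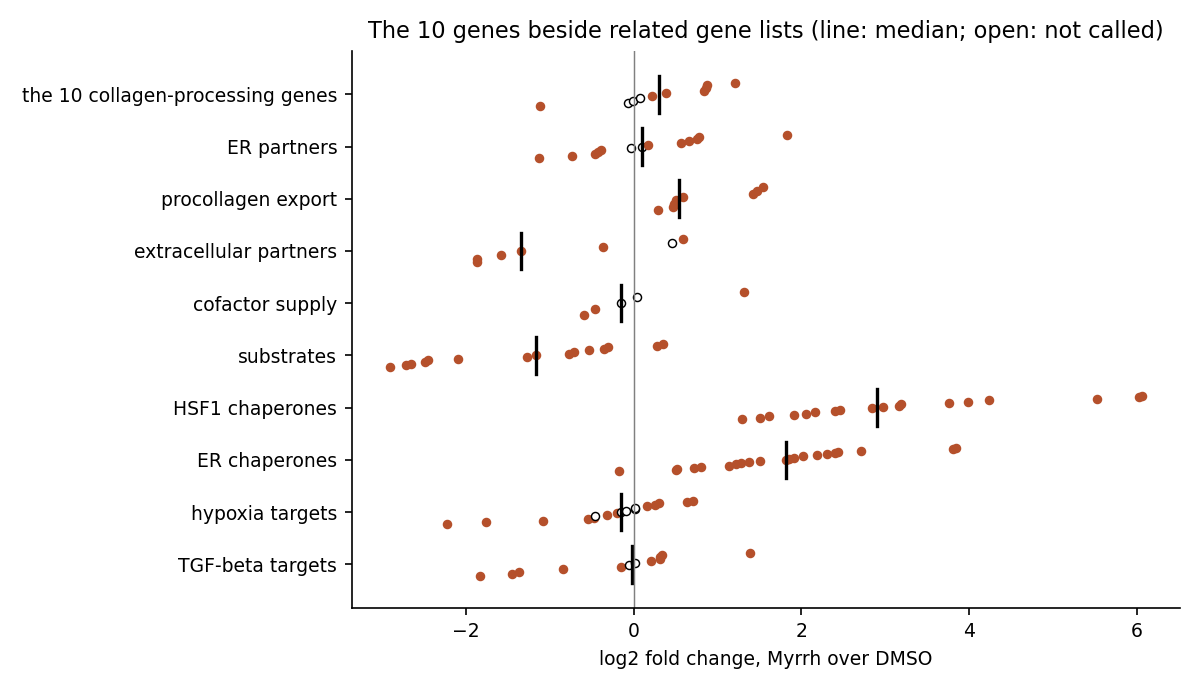
Log2 fold change of Myrrh over DMSO for the 10 collagen-processing genes and 9 related lists, 1 point per tested gene (filled where the adjusted p is under 0.05, open where it is not), with a line at each median. The heat shock and ER chaperones lie to the right, the substrates and extracellular partners mostly to the left, and the 10 genes between -1.12 and 1.21.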

How the data were processed

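The libraries were TruSeq RNA libraries from 1.5 µg of column-purified total RNA, per the labels' protocols. The authors deposited estimated counts per gene and log2(TPM + 1) values. The submitters' processing notes name STAR, RSEM 1.3.1 and GRCh38, and trimming, annotation release and strandedness were not given in the sources used here. TPM was recovered by undoing the log2.

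Estimated counts were rounded, filtered with filterByExpr, scaled with TMM (factors 0.933 to 0.973 in Myrrh and 1.05 in DMSO) and tested with edgeR 4.0.16 (glmQLFit, robust) in R 4.3.3, two-sided, Myrrh against DMSO over 6 libraries. SE is the log2 fold change over the square root of F. Alternatives used DESeq2 1.42.0, limma 3.58.1, other scalings and filters, a replicate block and each library left out. Coordinates are from GENCODE 29 and promoters from RefSeq (GRCh38.p14).

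The members and lists were chosen with earlier results of these data known. Named genes are the members, the 2 highest and 2 lowest called genes of each list, COL1A1, COL1A2 and P4HB. A gene that this rule names is not reported here.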

Additional observations from a re-analysis of the deposited data

How the results depend on the processing

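Over 26 results and 16 other settings, 323 of 338 recomputed values were labelled the same. For a fold change of a member this meant the same sign and the same side of the threshold. For a log2 ratio it meant the same sign and a difference within the pooled SD of the reported one. For counts of calls it meant a total within 1.5 times the reported total. A total that stayed did not mean that its split did. With library totals the split was 5 higher and 2 lower for the members, 3 and 11 for the hypoxia targets and 1 and 7 for the TGF-beta targets. With limma all 21 ER chaperones were called higher, and the extracellular partners called were 5, all lower, with the same genes tested. With library totals, P4HA1 was no longer called (0.075), LOX became called lower (-0.15) and LOXL2 turned to -0.071, and that scaling moves all genes alike. LOXL2 was also at -0.028 with a filter of 5 CPM in 3 libraries. That filter lowered the values of all members it tested by about the same amount, and leaving out the filter raised all members alike. LOX turned positive without a filter (0.026) and on log2(TPM + 1) with limma (0.061, with either filter). With counts in place of TPM the log2 ratio of PLOD3 to PLOD1 differed by -0.48 and that of SERPINH1 to COL1A1 by 4.11. The cause was not tested in these cases. Leaving out each library in turn gave -0.038 to 0.053 for LOX, -0.14 to 0.033 for P4HA3, -0.17 to 0.0032 for PLOD2/PLOD1 and -0.091 to 0.016 for LOX/LOXL2, none of them called. LOX was also above 0 without Myrrh replicate 2 or 3 (0.010 and 0.0069). The upper ends came without DMSO replicate 3 for LOX and P4HA3 and without Myrrh replicate 3 for the ratios. The 7 calls among the members held without each library, and all genes called numbered 12362 to 12893.

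Same-numbered Myrrh and DMSO libraries correlated at -0.06, -0.005 and 0.036 in their deviations from the group means. Libraries of unlike number correlated at -0.09 to 0.10. No sign of pairing by number was seen, but these values cannot show whether the libraries were prepared as pairs. With the replicate number as a block, 12782 genes and the same count of 7 members were called, with SERPINH1 at 1.21, P4HA1 at 0.22 and BMP1 at -1.12. P4HA3 had the widest 95% interval of the members (-0.38 to 0.23), at 85 to 138 counts per library.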

Other observations

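Estimated counts divided by TPM, relative to the median gene of each library, give an implied transcript length on a log2 scale for 10972 genes with at least 100 counts and 1 TPM in every library. For PLOD3 it was -0.56, -0.61 and -0.53 in Myrrh and -0.73, -0.76 and -0.71 in DMSO, a difference of 0.17, at percentile 91.3 of those genes. Its groups did not overlap, and PLOD3 was the member whose rise differed most between counts (0.39) and log2(TPM + 1) values (0.28) among those that rose. For LOX the difference was -0.005 and for BMP1 -0.07. This measure was chosen after the data were seen and no test was made.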
